A study of Mus musculus with 6 samples.

Results

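The Hox genes of the 4 mouse clusters were examined in the quadriceps of AR97Q mice after running exercise. A probe was taken as a member when its transcript accession matched, in a RefSeq gene table, a symbol made of Hoxa, Hoxb, Hoxc or Hoxd and a number. These were 46 of the 56605 probes that are not controls, and they represented 39 genes, namely 11 of the HoxA cluster on chromosome 6, 10 of HoxB on chromosome 11, 9 of HoxC on chromosome 15 and 9 of HoxD on chromosome 2.

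RNA came from 6 male AR97Q mice aged 9 weeks, 3 in the exercise group and 3 in the sedentary group, with 1 single-dye Agilent array per mouse. AR97Q mice model spinal and bulbar muscular atrophy (SBMA), a disease of motor neurons and muscle, and carry a transgene for the human androgen receptor with an expanded CAG repeat on a C57BL/6J background. Every mouse of both groups carries it, so the arrays hold no animal without it, and the promoter of the transgene is not given in the sources used here. The exercise group had run on a forced wheel at 5 m/min for 60 min a day, 5 days a week, for 4 weeks from 5 weeks of age, and the sedentary group had no such training.

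Hox proteins are transcription factors that bind DNA through a homeodomain. Their genes lie in clusters, and during development those at one end of a cluster are switched on early and in anterior tissue, whereas those at the other end come on later and in posterior tissue and in the distal limb. Genes with the same number in different clusters, the paralog groups, descend from a common ancestor. Connective tissue and muscle stem cells of adult limbs are known to keep a pattern of Hox expression that reflects where in the body they arose.

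All values below are log2 processed signals from which the 75th percentile of the same array was subtracted, so 0 is the 75th percentile itself and lower values are negative. They are brightness, not numbers of molecules, and levels of different probes cannot be ranked against each other. The 75th percentile was 251 to 257 on the exercise arrays and 310 to 384 on the sedentary arrays, and 54.6 to 59.9% of the probes were well above background, a flag that the authors' software sets spot by spot. They shared 1 slide and 1 scan. The exercise arrays and sedentary array 1 lay in the first strip of the slide and sedentary arrays 2 and 3 in the other. All 8 skeletal muscle fibre genes listed (Acta1, Ckm, Myh4, Myh1, Tnnt3, Mb, Des and Ttn) passed the filter described below. All 10 markers of fibroblasts and fibro-adipogenic progenitors and all 7 of macrophages passed too, so passing it does not identify the tissue.

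The promoters of the downregulated members described below are shown here because regulatory sequence of this kind is what Hox proteins and their partners bind. RefSeq promoter windows were at hand for Hoxd4, Hoxd9 and Hoxa5, and for neither Hoxc9 nor Hoxc11. Each is the 250 bases before the annotated start on GRCm38.p6, written 5′ to 3′ on the strand of the gene. Hoxd4 lies on the plus strand and its window is chr2:74721728-74721977, that of Hoxd9 is chr2:74697513-74697762 on the same strand, and that of Hoxa5 is chr6:52204588-52204837 on the minus strand. Capitals mark the homeodomain core on either strand.
Hoxd4: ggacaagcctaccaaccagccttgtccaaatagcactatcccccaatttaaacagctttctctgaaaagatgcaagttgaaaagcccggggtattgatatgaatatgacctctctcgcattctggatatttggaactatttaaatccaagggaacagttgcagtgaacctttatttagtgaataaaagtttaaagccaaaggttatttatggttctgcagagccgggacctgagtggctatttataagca
Hoxd9: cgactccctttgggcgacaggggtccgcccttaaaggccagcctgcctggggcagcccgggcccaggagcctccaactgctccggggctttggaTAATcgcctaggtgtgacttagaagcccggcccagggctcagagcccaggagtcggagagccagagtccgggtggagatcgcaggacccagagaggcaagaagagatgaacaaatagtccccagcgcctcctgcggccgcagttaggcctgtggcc
Hoxa5: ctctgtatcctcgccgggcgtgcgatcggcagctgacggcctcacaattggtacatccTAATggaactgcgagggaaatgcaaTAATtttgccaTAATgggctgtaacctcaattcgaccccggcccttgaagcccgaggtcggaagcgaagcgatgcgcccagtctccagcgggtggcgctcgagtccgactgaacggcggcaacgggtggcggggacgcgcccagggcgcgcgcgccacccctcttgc
The motifs searched on both strands were the homeodomain core (TAAT), the site that Pbx and Hox proteins bind together (TGATNNAT), and the site of Meis and Pknox proteins (TGACAG). The homeodomain core can lie inside a match to the Pbx-Hox site. The Hoxa5 window held the core 3 times, that of Hoxd9 held it 1 time, and that of Hoxd4 0 times. None of the 3 windows held the other motifs. Among the 32851 promoter windows of the table, 54.9% held the core, 7.68% the Pbx-Hox site and 15.9% the Meis site, and among the 24 windows of Hox genes these numbered 18, 4 and 2. The 3 windows differed in composition, with 28 CpG dinucleotides in that of Hoxa5, 13 in that of Hoxd9 and 3 in that of Hoxd4, beside a median of 12.5 over the windows of Hox genes and 6 over all windows. These are matches of letters and not sites of binding, and the arrays did not measure binding.

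The first question was which Hox genes could be detected in this hindlimb muscle. Probes that carried this flag on 3 or more arrays were kept, which left 28 of the 39 genes. Of these, 26 were well above background on all 6 arrays, and no member passed through the arrays of a single group. Hoxb5 was well above background on 2 exercise and 3 sedentary arrays and Hoxd10 on 2 of each.

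The clusters differed in how much of them was detected. All 11 HoxA genes passed on all 6 arrays, up to Hoxa13 at the posterior end. In HoxB a block from Hoxb2 to Hoxb7 passed, 6 of 10 genes, while Hoxb1, Hoxb8, Hoxb9 and Hoxb13 did not. In HoxC 7 of 9 passed, Hoxc4, Hoxc5, Hoxc6, Hoxc8, Hoxc9, Hoxc10 and Hoxc11, with Hoxc12 and Hoxc13 left at the posterior end. In HoxD 4 of 9 passed, Hoxd4, Hoxd8, Hoxd9 and Hoxd10, and Hoxd1, Hoxd3, Hoxd11, Hoxd12 and Hoxd13 did not.

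**Figure D1:**
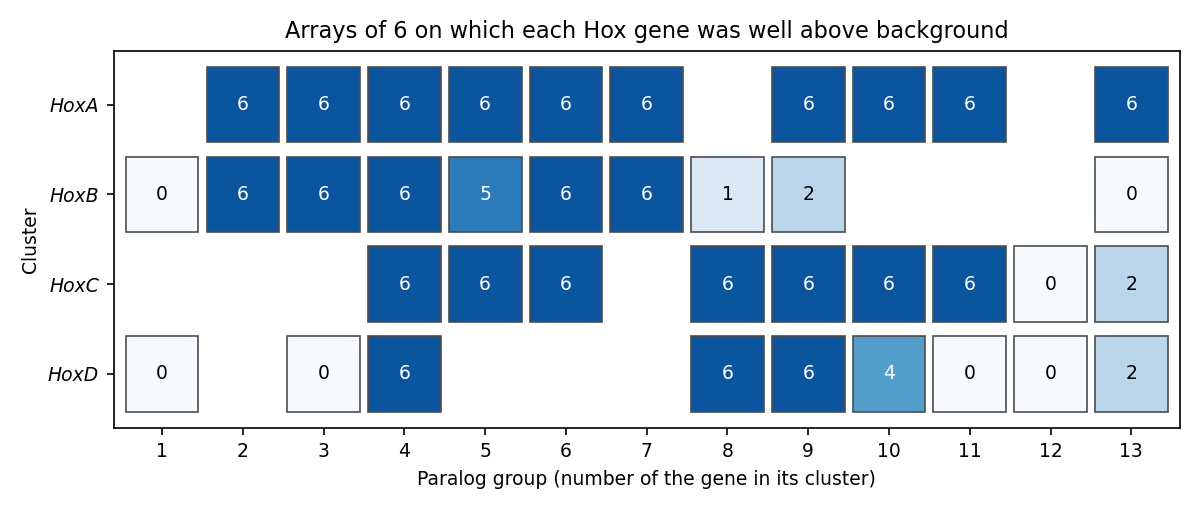
Number of arrays, of 6, on which each Hox gene had a probe well above background, by paralog group (horizontal axis) and cluster (vertical axis), with a box for each gene shown. HoxA is filled from Hoxa2 to Hoxa13, HoxB from Hoxb2 to Hoxb7, HoxC from Hoxc4 to Hoxc11, and HoxD at Hoxd4 and Hoxd8 to Hoxd10.

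By position, paralog groups 4 to 8 were detected in 14 of 15 genes, with Hoxb8 the exception. Paralog groups 1 to 3 were detected in 5 of 8 genes and groups 9 to 13 in 9 of 16. Hoxa13, which acts in the most distal part of the limb during development, was the only one of the 4 genes of paralog group 13 that passed, and of the 2 genes of group 12 on the arrays neither passed. The muscle lies in the thigh, and all 3 genes of paralog group 10, which pattern the lumbar region and the proximal hindlimb, were detected, Hoxa10 and Hoxc10 on all 6 arrays and Hoxd10 on 4.

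Of the 11 genes below the filter, 7 were well above background on none of the arrays (Hoxb1, Hoxb13, Hoxc12, Hoxd1, Hoxd3, Hoxd11 and Hoxd12). The remaining 4 were seen on sedentary arrays and on no exercise array, Hoxb9, Hoxc13 and Hoxd13 on 2 sedentary arrays each and Hoxb8 on 1. Hoxc13, known for its role in hair and nails, read -5.81, -5.81 and -5.51 on the exercise arrays and -4.84, -3.08 and -3.62 on the sedentary arrays. The 2 sedentary arrays on which it was well above background were the 2 of the other strip. Raising each exercise value to the dimmest probe well above background on that array gave a mean 1.74-fold higher in the sedentary group. The same calculation gave 1.22-fold for Hoxb9 and 1.17-fold for Hoxd13, and it gave no fold for Hoxb8. The sedentary means took in arrays on which the gene was not well above background, so these folds are not strict lower limits. Hoxd13, too, was well above background only on the 2 sedentary arrays of the other strip. These genes did not enter the test.

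A second, less strict flag of the software, for a signal positive and significant against its local background, was set on at least 3 arrays for 32 of the 39 genes. The 4 it adds are again Hoxb8, Hoxb9, Hoxc13 and Hoxd13.

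The second question was how the detected Hox genes differed between exercised and sedentary mice. Hoxd4 and Hoxd9 of the HoxD cluster, Hoxa5 and Hoxc11 were downregulated in the exercise group, and Hoxc9 was upregulated, at a false discovery rate (FDR) under 0.05 in limma with Benjamini-Hochberg adjustment over 25005 genes and transcripts. Hoxd4 alone also reached the log2 fold change of 1 that the methods ask for. These 5 of 28 are 17.9% of the members tested, and 17.6% of everything tested passed, so the share called was near that of everything tested. By direction, the 1 gene called higher stands beside 11.5% and the 4 called lower beside 6.12% of everything tested. For a fall of at least 1 on the log2 scale, as for Hoxd4, the share was 1.06%.

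Hoxd4, which patterns the cervical vertebrae in the embryo, showed the largest change among those that passed. On the exercise arrays it read -2.96, -2.79 and -2.76 and on the sedentary arrays -1.46, -1.92 and -2.01. The groups lay apart, with the exercise arrays lower, and sedentary array 1 was the highest of all. Means over 3 arrays were -2.84 ± 0.11 (SD) with exercise and -1.79 ± 0.29 (SD) without. The log2 fold change was -1.04 (SE 0.16, 95% interval -1.44 to -0.65, limma FDR = 0.0234), a level 2.06-fold lower. Before scaling, the processed signals were 33.0, 37.0 and 36.9 on the exercise arrays and 112.9, 98.1 and 95.5 on the sedentary arrays. At signals this low the background correction matters, and with the normexp correction in place of the processed signal the log2 fold change was -0.36.

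Hoxd9, whose paralog group takes part in forming the proximal limb and in the innervation of limb muscle, fell next. Its values were -1.81, -1.26 and -1.82 on the exercise arrays and -0.60, -0.86 and -0.81 on the sedentary arrays. Exercise array 2 stood nearest to the sedentary group without reaching it. Group means were -1.63 ± 0.32 and -0.76 ± 0.14 (SD, n = 3 each), with a log2 fold change of -0.87 (SE 0.18, 95% interval -1.30 to -0.44, limma FDR = 0.0288). With the normexp correction it was -0.52, again called.

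For both HoxD genes the difference was present within the strip of the slide that the exercise arrays share with sedentary array 1. Against that array alone the exercise mean of Hoxd4 differed by -1.38 and that of Hoxd9 by -1.03 on the log2 scale, both larger than over all arrays. With a single sedentary array neither passed the FDR (limma FDR = 0.245 and 0.266). With the strip as a block in the fit of all 6 arrays, limma gave FDR = 0.136 and 0.167. The differences had the same sizes by construction, since the other strip holds sedentary arrays only.

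Hoxa5, which acts in the cervicothoracic skeleton and the lung, read -2.68, -2.44 and -2.66 in the exercise group and -2.22, -2.11 and -2.10 in the sedentary group. No value of one group lay within the other, and the gap between exercise array 2 and sedentary array 1 was the narrowest point. The log2 fold change was -0.46 (SE 0.10, 95% interval -0.70 to -0.21, limma FDR = 0.0333), with group means of -2.60 ± 0.13 and -2.14 ± 0.07 (SD, n = 3 each). Within the first strip it was -0.38, and with the normexp correction -0.10, with no call.

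Hoxc11, of the paralog group that shapes the lumbosacral region and the lower limb, read 1.10, 1.33 and 1.15 on the exercise arrays and 1.47, 1.78 and 1.67 on the sedentary arrays. Here sedentary array 1 was the lowest of its group. The log2 fold change was -0.45 (SE 0.12, 95% interval -0.73 to -0.16), and with an FDR of 0.0478 in limma it was the member nearest to the threshold among those called. Within the first strip the difference was -0.28.

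Hoxc9, a gene of the thoracic region that lies next to Hoxc10 in the cluster, moved the other way. Exercise arrays read 3.64, 3.72 and 3.52 and sedentary arrays 3.30, 3.27 and 3.15, with no overlap. Its log2 fold change was 0.39 (SE 0.09, 95% interval 0.16 to 0.62, limma FDR = 0.0407), and within the first strip it was 0.33. Without any scaling between arrays it was -0.09. In those unscaled values the median of everything tested was -0.45, against 0.03 after scaling. Relative to that median Hoxc9 stood 0.36 higher on either scale, a value that scaling by array cannot change.

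**Figure D2:**
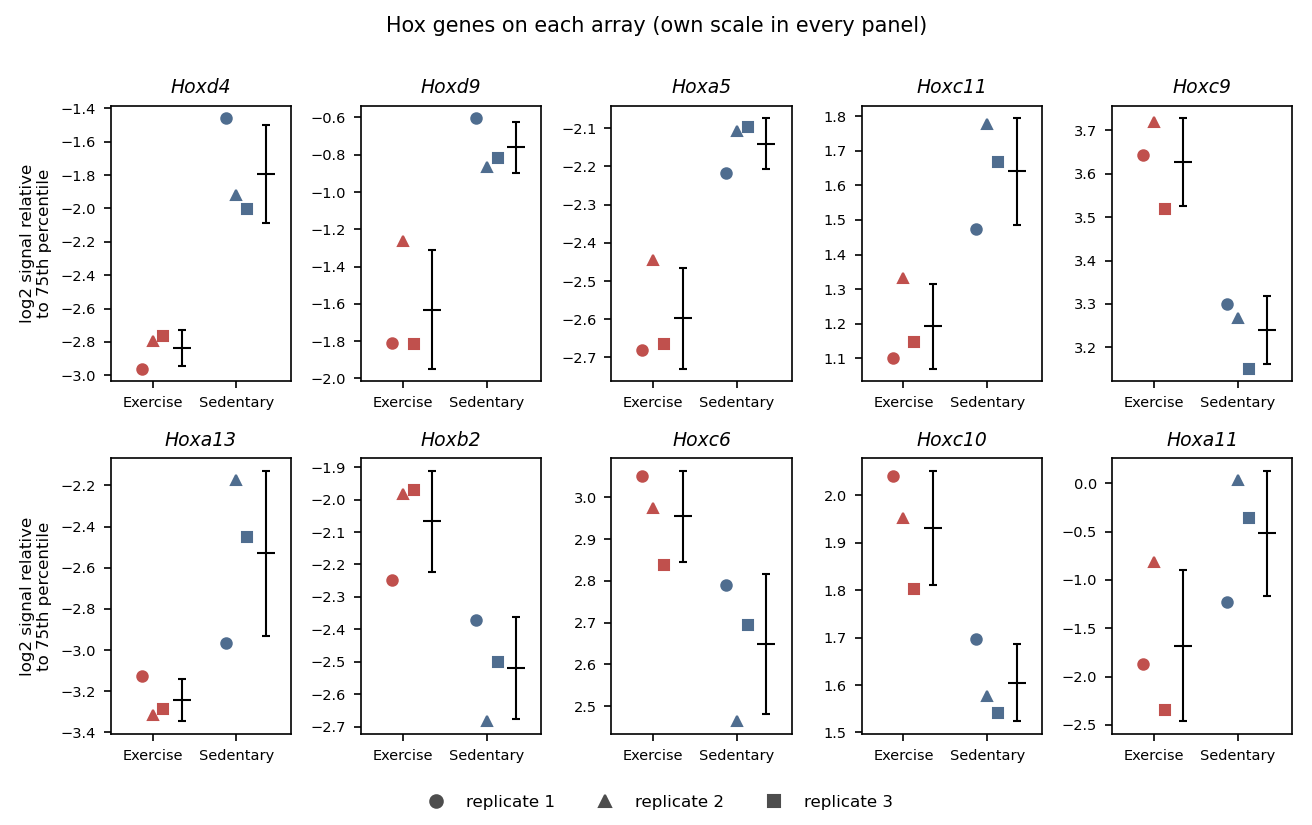
Log2 signal relative to the array's 75th percentile (vertical axis, its own scale in each panel) of 10 Hox genes on each exercise array (red) and sedentary array (blue). Symbols give the replicate number, which was not taken to pair the mice, and the bars are the group mean ± SD of 3 arrays. The groups lie apart in all panels except that of Hoxa11, where exercise array 2 lies above sedentary array 1.

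Leaving out any array other than sedentary array 1 ended all 5 calls, and without sedentary array 1 limma called 7 members, these 5 with Hoxa13 and Hoxb2. This held for the whole table, where those 5 fits called at most 1 of the 25005 genes and transcripts. Without sedentary array 1, 13.9% of everything tested was called higher and 8.24% lower, beside 7.14% and 17.9% of the Hox genes. The directions of all 5 members were kept in each case. Over the 6 fits with an array left out, the log2 fold change ran from -1.15 to -0.88 for Hoxd4, from -1.05 to -0.78 for Hoxd9, from -0.53 to -0.41 for Hoxa5, from -0.53 to -0.38 for Hoxc11 and from 0.34 to 0.44 for Hoxc9.

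The groups lay apart for 4 further members that did not pass the FDR, which makes 9 of 28 (32.1%), below the 43.2% found for everything tested. Higher in the exercise group were Hoxb2, Hoxc6, Hoxc9 and Hoxc10, 4 members beside 25% of everything tested, and lower were Hoxa5, Hoxa13, Hoxc11, Hoxd4 and Hoxd9, 5 members beside 18.2%. With 3 arrays against 3, an exact permutation test of a single gene cannot give a p below 0.1.

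Hoxb2, a gene of the hindbrain and the anterior trunk, read -2.25, -1.98 and -1.97 on the exercise arrays and -2.37, -2.68 and -2.50 on the sedentary arrays, with a log2 fold change of 0.45 (limma FDR = 0.0561). Hoxc10, a gene of the lumbar region and the hindlimb, read 2.04, 1.95 and 1.80 against 1.70, 1.58 and 1.54, with a log2 fold change of 0.33 (limma FDR = 0.0684). Hoxc6, a gene of the thoracic region, read 3.05, 2.97 and 2.84 against 2.79, 2.46 and 2.69, and its log2 fold change was 0.31 (limma FDR = 0.118). Without scaling all 3 turned negative, at -0.02 for Hoxb2, -0.15 for Hoxc10 and -0.17 for Hoxc6. Hoxa13 read -3.13, -3.32 and -3.29 on the exercise arrays and -2.96, -2.18 and -2.45 on the sedentary arrays. Its log2 fold change was -0.71 (limma FDR = 0.0603), and within the first strip it was -0.28, since sedentary array 1 lay close to the exercise arrays. With the normexp correction it was -0.14.

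Hoxa11, which together with its paralogs forms the middle segment of the limb, had the largest fitted difference of all members and did not pass. It read -1.87, -0.82 and -2.35 on the exercise arrays and -1.23, 0.04 and -0.36 on the sedentary arrays. The SD was 0.79 in the exercise group and 0.65 in the sedentary group, beside 0.10 and 0.11 for Hoxc9 and Hoxd4 among the exercised mice, and the groups overlapped. The log2 fold change was -1.16 (95% interval -2.32 to -0.0024, limma FDR = 0.135). Within the first strip it was -0.45, and with the normexp correction -0.69.

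The Hoxa11 locus is also transcribed from the opposite strand, and the antisense RNA Hoxa11os had a probe of its own. It read -0.63, -0.24 and -1.18 on the exercise arrays and -0.26, 0.77 and 0.48 on the sedentary arrays, with a log2 fold change of -1.02 (limma FDR = 0.0851). The 6 arrays stood in the same order for both transcripts, with exercise array 3 the lowest and sedentary array 2 the highest. The files give no probe sequences, so whether each of these probes reads a single strand was not examined.

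**Figure D3:**
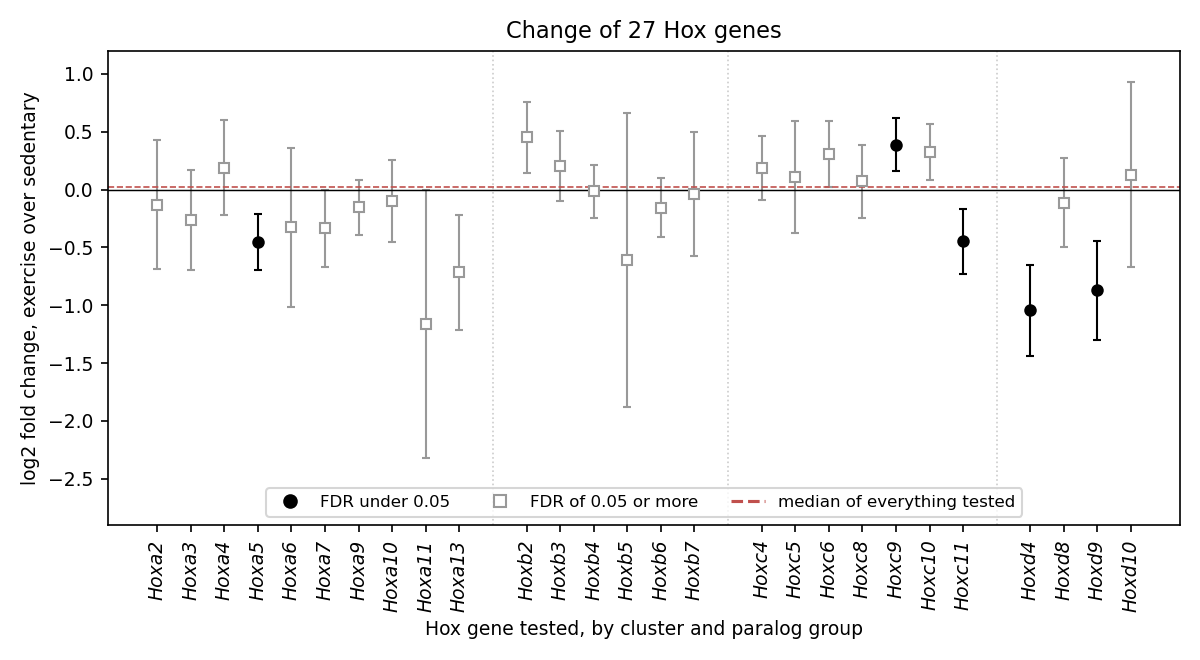
Log2 fold change of exercise over sedentary (vertical axis, point with 95% interval of the limma fit) for 27 Hox genes tested, ordered by cluster and paralog group (horizontal axis). Filled circles passed FDR under 0.05 and open squares did not. Most HoxA points lie below the dashed median of everything tested (0.03) and most HoxC points above it.

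Counted by cluster, the directions were as follows. In HoxA 10 of 11 genes were lower in the exercise group, with a median log2 fold change of -0.26, and only Hoxa4 was higher (0.19). In HoxC 6 of 7 were higher, with a median of 0.18, and Hoxc11 at the posterior end was lower. HoxD had 3 of 4 lower with a median of -0.49, and HoxB had 4 of 6 lower with a median of -0.03. Over all 28 genes the median was -0.12 and 64.3% were lower, where the median of everything tested was 0.03 and 47.1% was lower. Most of these members did not pass the test one by one, genes of a cluster are neighbours that can share regulation, and no test was made of a cluster as a whole.

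These cluster counts moved with the processing and with single arrays. Without scaling all 28 genes were lower. Relative to the median of everything tested, the medians of HoxA and HoxC were -0.29 and 0.16 with and without scaling. Scaling shifts all genes of an array alike, so these relative values could not change. With quantile normalization HoxA had 10 of 11 lower and HoxC 6 of 7 higher, and with the strip as a block 9 of 11 and 6 of 7. With the normexp correction the counts were 8 of 11 and 6 of 7, and in the values the authors deposited for all arrays 10 of 11 and 4 of 7. Without exercise array 3, HoxA had 7 of 11 lower with a median of -0.10, and without sedentary array 2 it had 10 of 11 with a median of -0.14, while HoxC had 5 of 7 higher in both cases. With the strip as a block the HoxA median was -0.14, and with normexp -0.11. Without exercise array 2 it was -0.41. Without sedentary array 3 the HoxC median was 0.29.

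Of the 3 brightest probes of each cluster, those of Hoxc9, Hoxc6, Hoxc10, Hoxd9 and Hoxd4 were described above, and the others, none of them called, follow. Hoxa10 read 3.58, 3.38 and 3.05 on the exercise arrays and 3.38, 3.42 and 3.51 on the sedentary arrays, so its exercise arrays spanned those of the sedentary group. Hoxa7, a gene of the thoracic region, read 2.29, 2.71 and 2.34 against 2.66, 2.86 and 2.83, and only exercise array 2 overlapped with the sedentary arrays (log2 fold change -0.34, limma FDR = 0.135). Hoxa3, which is needed for the thymus and parathyroid, read 0.07, 0.32 and -0.32 against 0.16, 0.29 and 0.41. Exercise array 3 was the lowest for both Hoxa10 and Hoxa3.

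In HoxB, Hoxb7 read 0.67, 1.22 and 0.34 on the exercise arrays and 0.73, 0.87 and 0.74 on the sedentary arrays, so the exercise arrays lay on both sides of a narrow sedentary range. Hoxb6 read -0.84, -0.84 and -0.72 against -0.76, -0.69 and -0.48. Hoxb4, known from blood stem cells, read -1.48, -1.38 and -1.51 against -1.32, -1.52 and -1.49, and its log2 fold change of -0.01 had a 95% interval from -0.24 to 0.22. This interval leaves out a change of the size seen in Hoxa5. In HoxD, Hoxd8 read 1.61, 2.10 and 1.97 against 1.82, 2.06 and 2.14, a log2 fold change of -0.12 with an interval from -0.50 to 0.27, although it lies beside Hoxd9.

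Other members, none of them called, ranged as follows. In HoxA, Hoxa2, Hoxa4, Hoxa6 and Hoxa9 had log2 fold changes from -0.33 (Hoxa6) to 0.19 (Hoxa4). In HoxB, Hoxb3 had 0.20 and Hoxb5 -0.61, the latter with exercise values from -4.67 to -2.46 and the widest 95% interval of all members (-1.88 to 0.66). In HoxC, Hoxc4, Hoxc5 and Hoxc8 had 0.18, 0.11 and 0.07. Hoxd10, at -4.41, -4.07 and -3.74 on the exercise arrays and -4.90, -3.91 and -3.80 on the sedentary arrays, was near the background, and its log2 fold change was 0.13.

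Values of paralogs are set side by side here. In paralog group 9, Hoxc9 was higher and Hoxd9 lower, while Hoxa9 differed by -0.15 (limma FDR = 0.297). In paralog group 11, Hoxc11 was lower (-0.45), and Hoxa11 had -1.16 with groups that overlapped. In group 4, Hoxd4 was lower, and Hoxa4, Hoxb4 and Hoxc4 had log2 fold changes of 0.19, -0.01 and 0.18. In group 5, Hoxa5 was lower (-0.46), Hoxb5 had -0.61 and Hoxc5 0.11. Differences between paralogs were not tested, and since the files hold no probe sequences, reading of a paralog by a probe could not be checked.

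Of the 39 genes 7 had a second probe, and for 4 of them both probes passed the filter. For Hoxa9 the probes opposed each other. The brighter read -0.07, -0.22 and -0.31 on the exercise arrays and -0.13, 0.00 and -0.02 on the sedentary arrays. The dimmer read -1.08, -1.19 and -1.14 against -1.26, -1.30 and -1.31, with all exercise arrays higher (log2 fold change 0.16, limma FDR over all probes = 0.213). The mean of both probes gave 0.00 for Hoxa9. The probes of Hoxa10 (-0.10 and -0.13), Hoxb3 (0.20 and 0.33) and Hoxd8 (-0.12 and -0.37) had the same sign. None of the 5 called members had a second probe.

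Other transcripts of the Hox loci were measured too. Of the 8 noncoding RNAs of the clusters that were listed, 6 had a probe and 4 passed the filter, while Hottip was seen on 2 sedentary arrays only. Hoxb5os, transcribed from the opposite strand at Hoxb5, was upregulated. It read 0.64, 0.56 and 0.35 on the exercise arrays and 0.14, 0.12 and -0.14 on the sedentary arrays, with a log2 fold change of 0.48 (limma FDR = 0.0467), whereas without scaling it did not differ (0.00). Its neighbour Hoxb5 overlapped between the groups. Hoxb3os and Hoxd3os1 had log2 fold changes of -0.05 and 0.29.

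Among 10 genes that flank the clusters, 8 were tested, and Skap2, which flanks HoxA and encodes a signalling adaptor of immune cells, was downregulated with a log2 fold change of -0.74 (limma FDR = 0.0247). It read 1.60, 1.72 and 1.70 on the exercise arrays and 2.15, 2.52 and 2.56 on the sedentary arrays. Evx2, a homeobox gene beyond Hoxd13, was at 0.33 (limma FDR = 0.119), and Calcoco1 and Skap1 were at -0.68 and -0.67 without passing. Mtx2 and Lnpk, which flank HoxD, had -0.12 and 0.07.

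The cofactors of Hox proteins came next. Pbx, Meis and Pknox proteins belong to the TALE class of homeodomain proteins and bind DNA together with Hox proteins. Of 9 genes listed, 8 were tested. Meis2 was downregulated, at -2.09, -1.94 and -1.81 on the exercise arrays and -1.28, -0.80 and -1.01 on the sedentary arrays. Its log2 fold change was -0.92 (SE 0.15, limma FDR = 0.0236), and its 3 probes gave -0.92, -1.04 and -0.76.

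Pknox2 and Meis3 had log2 fold changes of 0.53 and 0.29 and Pbx3 of -0.31. The groups lay apart in all 3, and none passed the FDR (limma FDR = 0.0853, 0.0887 and 0.0706).

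**Figure D4:**
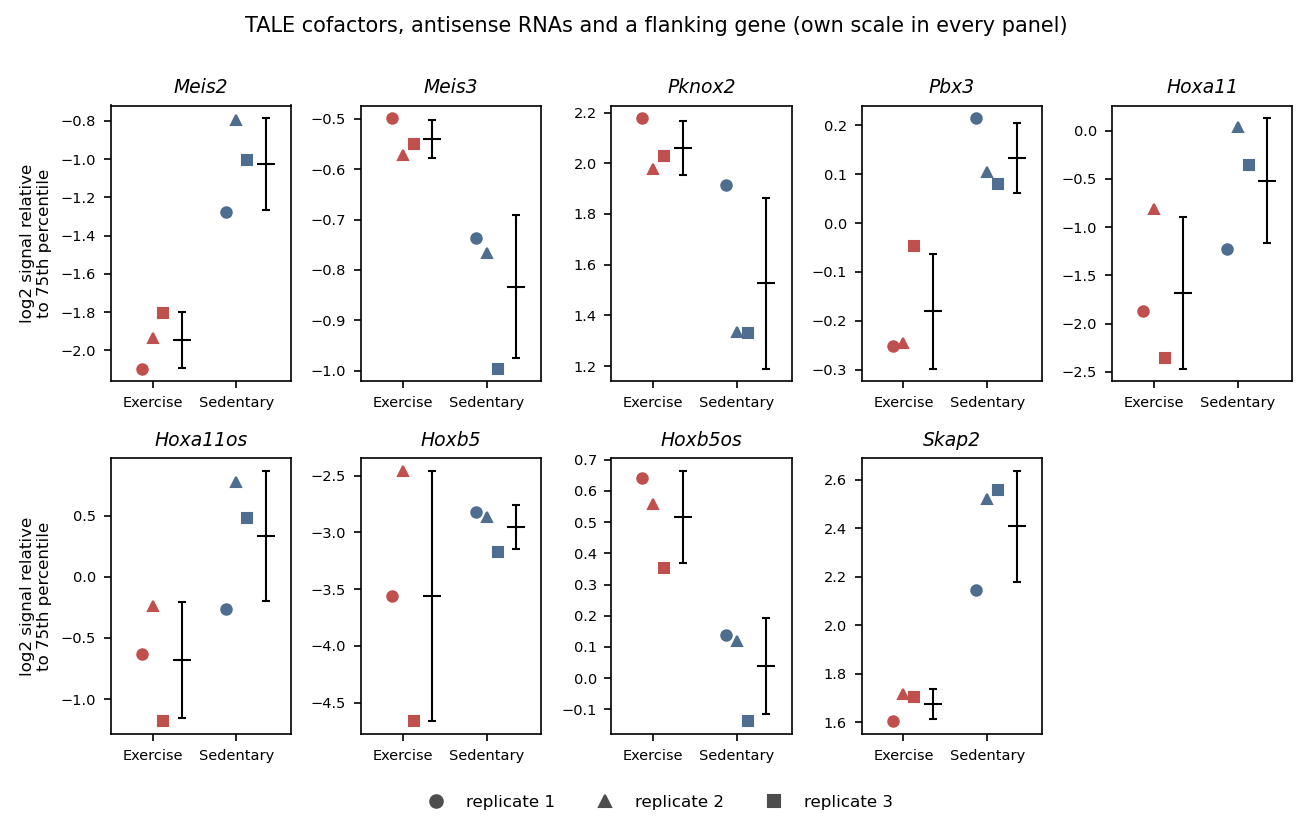
Log2 signal relative to the array's 75th percentile (vertical axis, its own scale in each panel) of 4 TALE cofactors, the pairs Hoxa11 with Hoxa11os and Hoxb5 with Hoxb5os, and the flanking gene Skap2, on each exercise array (red) and sedentary array (blue). Bars are the group mean ± SD of 3 arrays. Meis2 and Skap2 lie lower and Meis3 and Pknox2 higher on every exercise array, and Hoxa11 and Hoxa11os spread alike within each group.

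Polycomb proteins keep Hox clusters silent and Trithorax proteins keep them active. Of 27 Polycomb group genes tested, Pcgf5, a subunit of the PRC1 complex, was called higher (log2 fold change 0.50, limma FDR = 0.0275). The largest fitted falls without a call, Cbx2 with -0.74 and Pcgf2 with -0.67, had limma FDR = 0.0572 and 0.0798. Ezh2, Ezh1, Eed and Suz12, the core of the PRC2 complex, had log2 fold changes from -0.11 to 0.20. The median of the Polycomb list was -0.01. Of 14 genes of the Trithorax group and the H3K27 demethylases, Dpy30, a subunit of the complexes that methylate H3K4, was called higher (0.36, limma FDR = 0.0358). Kdm6a and Kdm6b, which remove the repressive mark, had -0.37 and 0.29 and did not pass. The median of this list was -0.08. Both lists had a lower share of calls than the 17.6% of everything tested. Without scaling Dpy30 was at -0.11.

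Retinoic acid and the Cdx proteins set the clusters in motion in the embryo. Cdx1, Cdx2, Cdx4, Cyp26a1 and Gdf11 did not pass the filter. In the 7 of 12 upstream regulators that were tested, limma called 0 at the FDR, and 1 gene had an unadjusted p under 0.05 in limma and 1 in the methods' t-test. Cyp26b1, which degrades retinoic acid, had the largest difference, -1.18, at 0.25, 1.61 and -0.75 on the exercise arrays and 1.97, 1.32 and 1.35 on the sedentary arrays, so the groups overlapped (limma FDR = 0.195).

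Factors of limb and axial patterning outside the clusters were tested for 20 genes, and every call was in the direction of higher, beside 11.5% of everything tested. Among them were Six2 (1.03), of a family that controls muscle formation, Tbx15 (0.66), which is needed for glycolytic muscle fibres, and Lmx1b (0.71), which specifies dorsal limb. Without scaling these 3 were above 0. Dlx6 entered the test only through the exercise arrays and was below this level of detection on all 3 sedentary arrays, so it is not counted as a call and only a bound can be given, an exercise mean at least 2.91-fold higher. Without it the median of the list was 0.11. Pitx1 and Tbx4, which give the hindlimb its identity, had -0.49 and -0.19 and did not pass, with the groups apart for Pitx1. Tbx5, the forelimb factor, had 0.01.

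Whole muscle holds several cell types, and fewer cells of a type cannot be told apart from less RNA per cell. Markers moved with the groups as follows. For skeletal muscle fibres, 5 of 8 markers were called higher, beside 11.5% of everything tested, and each of the 8 had its higher mean with exercise. Without scaling Des, Ttn and Myh1, which were not called, turned negative. The 8 markers had a summed linear level, in multiples of the array's 75th percentile, of 3975 to 4522 on exercise arrays and 2017 to 2825 on sedentary arrays. For satellite cells, the stem cells of muscle, all 7 markers tested were lower, with a sum of 18.3 to 20.3 against 22.8 to 25.2. Pax7, their defining marker, was called lower (-0.60, limma FDR = 0.0255), 1 of 7 beside 6.12% of everything tested, and Myf5 was below the filter. For Schwann cells all 7 were lower, and the sums overlapped, at 43.2 to 52.0 against 49.3 to 65.8.

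For fibroblasts and fibro-adipogenic progenitors, 10 markers had a median of 0.05 and overlapping sums of 871 to 966 against 826 to 1100. Limma called 0 of them, and 0 had an unadjusted p under 0.05 in limma or in the methods' t-test. Endothelial cells and macrophages had 7 markers each with medians of -0.03 and -0.04. Limma called 0 in either list, and at an unadjusted p under 0.05 both limma and the methods' t-test had 1 in the endothelial and 0 in the macrophage list. Smooth muscle and pericyte markers were lower in 5 of 7, with a median of -0.31, and Myh11 was called lower (-0.95). Acta2 was called higher on its brightest probe (1.32), whereas its other probes gave -0.89 and -0.80. Adipocyte markers were lower in 5 of 6, with a median of -0.85 and no call among those 5, and Lep was called higher (0.35). Of 4 cartilage and bone markers 2 were higher and 2 lower, with a median of -0.01, and Sp7 was called higher (0.40). Without scaling Lep was at -0.12 and Sp7 at -0.07. Of 7 neuron and motor neuron markers tested, 4 were higher and 3 lower, with a median of 0.15. Nefh, a neurofilament of neurons, was among the 3 lower. It entered the test only through the sedentary arrays, where it was seen on all 3, so its call is not counted. It was at least 1.69-fold lower with exercise. The part of cell make-up in the Hox differences was not tested. Over the 28 Hox genes the summed level was 50.1 to 59.7 on the exercise arrays and 53.1 to 55.1 on the sedentary arrays, with the sedentary range inside that of the exercise group.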

How the data were processed

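The authors labelled total RNA with a single dye and read the arrays with Agilent Feature Extraction 12.1.0.3. They deposited 1 scanner file per array, and its processed signal, an intensity with the background subtracted, was used here. They also deposited a table of values, the same intensity times 1 factor per array. Control spots and outliers were left out, spots of a probe were averaged, and log2 values were taken relative to the array's 75th percentile. These are 1-colour intensities, and the number of arrays, dim probes and the background correction all limit the precision.

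Probes were named through accessions in a RefSeq table for GRCm38.p6, used for names and promoters. The filter asked for a signal well above background on 3 or more of 6 arrays, with the brightest probe standing for a gene, and 25005 genes and transcripts were fitted with limma 3.58.1 in R 4.3.3 (two-sided, Benjamini-Hochberg). The members and lists were chosen with earlier results of these data known. Genes named with each array's values are those called, the 3 brightest of each cluster and those with opposing probes. Hoxa11, Hoxa13, Hoxb2, Hoxc6, Hoxc10 and the dim members were added after their values were seen. Alternatives were other scalings, background corrections, filters and probe rules, the deposited table, blocks, the methods' t-test, other thresholds and each array left out. Some genes of the lists are not reported here by name.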

Additional observations from a re-analysis of the deposited data

How the results depend on the processing

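Limma called 1 Hox gene higher and 4 lower in the exercise group. With quantile normalization the counts were 0 and 2, without scaling 0 and 12, and in the deposited values 0 and 6. In these 3 settings limma called lower 5.45%, 45.1% and 12.8% of everything tested, beside 7.14%, 42.9% and 21.4% of the Hox genes. They were 5 and 4 with the normexp correction, 5 and 5 without the filter, 2 and 5 with the filter on all 6 arrays, 2 and 4 with trend and robust, and 0 and 3 with the probe of the largest SD. With normexp 25.02% and without the filter 21.7% of everything tested was called higher, beside 17.9% and 12.8% of the Hox genes. Called lower were 8.10% and 4.27%, beside 14.3% and 12.8%. With the filter on all 6 arrays 15.0% of everything tested was higher and 7.79% lower, beside 7.69% and 19.2% of the Hox genes. With trend and robust these shares were 14.9% and 7.95%, beside 7.14% and 14.3%. With the probe of the largest SD they were 10.1% and 5.60%, beside 0 and 10.7%. With the strip as a block and within the first strip 0 and 0 passed, with an unadjusted p under 0.05 for 1 and 3 members and for 1 and 2 members. The methods' t-test gave 0 and 0 after Benjamini-Hochberg and 3 and 5 at an unadjusted p under 0.05. At FDR under 0.1 limma called 3 higher and 5 lower, beside 4617 and 3084 of the 25005 tested. At an unadjusted p under 0.05 it had 4 and 7, beside 9249 of everything tested, 5398 of them higher. With the fold change minimum, an alternative added after seeing the data, it called 0 and 1, beside 1.72% and 1.06%. With each array left out, 0 to 2 were called higher and 0 to 5 lower.

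Replicate numbers were not taken to pair the mice. The correlations of same-numbered arrays around their group means were 0.02, 0.08 and 0.04. With 3 arrays behind each group mean, such values cannot tell whether the mice were paired. With the replicate block limma called 0 Hox genes in either direction, with 3 higher and 7 lower at an unadjusted p under 0.05, and 0 of the other lists, so the block moved these counts to 0, as it did for the whole table. Of the exercise arrays, 2 and 3 correlated best with the sedentary array of their own number, and exercise array 1 with sedentary array 3 (0.075).

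In the other lists, 9 genes were called higher and 3 lower, counting Dlx6 and Nefh, which were seen in 1 group only. The counts were 3 and 3 with quantile normalization, 1 and 49 without scaling, 1 and 11 in the deposited values, 15 and 7 with normexp, 8 and 6 with the filter on all arrays, 11 and 6 with trend and robust, 1 and 0 with the methods' t-test after Benjamini-Hochberg (11 lower at an unadjusted p under 0.05), and 0 and 0 with the strip as a block (6 and 6 at an unadjusted p under 0.05) and within the first strip (3 and 2). With each array left out they ran from 0 to 11 and from 0 to 10.

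The median log2 fold change of the Hox genes, -0.12, was -0.60 without scaling, -0.28 in the deposited values and 0.015 with normexp, where it turned its sign. Without scaling Hoxb2 (-0.021), Hoxc6 (-0.17), Hoxc9 (-0.085) and Hoxc10 (-0.15) turned too, and with the mean of its probes Hoxa9 (0.00043) did. Causes of these shifts were not tested, except that an unscaled value carries the dimmer signal of the exercise arrays. The number of Hox genes detected was 26 to 32 under the other rules. Hoxd4, Hoxd9, Hoxa5 and Hoxc11 kept their direction under all 19 alternatives run for each. Dim probes, such as those of Hoxd10 and the 11 genes below the filter, limit what these arrays can show.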
